A study of Mus musculus with 24 samples.

Results

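Lysosomes are the acidic organelles in which cells break down macromolecules, and the genes of this organelle were followed here through *Tsc1*-induced epileptogenesis in the mouse hippocampus. The set holds 45 genes of the 55385 gene identifiers counted, chosen by name as a functional set, with earlier results of these data known: 16 luminal hydrolases, 3 luminal cofactors, 7 lysosomal membrane proteins, 11 subunits or accessory proteins of the V-ATPase, and 8 genes of the TFEB family and of its folliculin and Rag regulators. All 45 were found in the count data, and all 45 passed the filter on low counts in every comparison. As background, the V-ATPase pumps protons into the lysosome, which the hydrolases need for their activity. On the lysosomal surface, Rag GTPases recruit mTORC1 and, with folliculin and its partners FNIP1 and FNIP2, present TFEB and TFE3 to it, so that phosphorylated TFEB and TFE3 are held in the cytosol. When not phosphorylated they enter the nucleus and bind a motif around the bases CACGTG in the promoters of many lysosomal genes. TSC1 belongs to the complex that restrains mTORC1, and rapamycin is an mTORC1 inhibitor that blocks only some of its substrates.

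Total RNA of the hippocampus was sequenced from 24 adult mice of both sexes, 4 in each of 6 groups, all with a floxed *Tsc1* gene (Tsc1f/f) and all given tamoxifen. Control mice lacked Cre, carried the label Tg(Camk2a-CreERT2-) and were taken on day 8 (hereafter *Tsc1-Cre*- or controls). The other groups were *Tsc1-Cre*+, Tg (Camk2a-CreERT2+), in which a *Camk2a*-driven, tamoxifen-dependent Cre deletes *Tsc1* in CAMK2A-positive neurons but not in the other cells of the hippocampus. They were taken on day 4, 6, 8 or 13 without a drug, or on day 13 after daily rapamycin at 10 mg/kg from day 4 (hereafter Rap 4). No group held Cre-negative mice given rapamycin, and there were no controls taken on day 13. The numbers in the names of the count tables place control and day 8 mice in the same series of animals and the other groups in different series, so that for those groups the day or treatment and the animal series cannot be told apart. Letters A to D name the mice of a group and mark different animals in each group. Levels are given as CPM, that is counts relative to the size of each library, which was adjusted by TMM over all 24 mice. Given with them are fold changes on the log2 scale, and p-values from edgeR's quasi-likelihood test with Benjamini-Hochberg adjustment over all genes tested. The threshold for a call was an adjusted p of 0.05, and "rose" or "fell" is used only for called genes. The p-values set the difference between groups against the spread between mice.

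Total counts ranged from 28208561 to 126435936 per mouse, with the widest range on day 13. The targeted gene *Tsc1* lay between 103 and 109.5 CPM in controls and between 57.5 and 81.7 CPM in the 20 *Tsc1-Cre*+ mice, so each mouse matched its label at this gene. Pyramidal and granule neuron markers were abundant in every mouse, with a summed level of 8 markers between 3485 and 4976 CPM. Choroid plexus markers varied from mouse to mouse within groups, with a summed level of 6 genes from 59.2 to 1692 CPM in controls alone and with *Folr1* at 0 counts in 1 mouse. Mice A and B of day 13 had the highest total counts of all 24 (69971957 and 126435936), and the median log2 ratio of the 45 members to the control mean was 0.39 in mice A and C of day 8 against 0.31 in B and 0.34 in D. Counts are therefore also given below for day 13 mice C and D alone and for day 8 mice B and D alone, a choice made after the data were seen.

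The binding motif of the TFEB family was looked for in the promoters, because these sequences show which members carry the site that their best-known regulators recognise. RefSeq promoters of build GRCm38.p6, from 250 bases before to 50 bases after an annotated start site, were at hand for 38 of the 45 members. The letters CACGTG were found in a promoter of 16 of these 38 members (42.1%) and in 8.09% of 27025 genes with a promoter. TCACGTG, read on either strand and containing CACGTG, was found in 14 members (36.8%) and in 4.29% of all genes. The palindrome TCACGTGA, which contains both, was found in 7 members (18.4%) and in 1.12% of all genes. These 7 were the hydrolases *Ctsa*, *Ctsd* and *Gla*, the channel *Mcoln1*, and the V-ATPase genes *Atp6v0d1*, *Atp6v1a* and *Atp6v0e*. A match is a description of the letters and not of binding, which was not measured. The sites are shown with 30 bases on either side, read 5′ to 3′ on the gene's strand, with TCACGTGA in capitals; for *Gla*, the member with the largest fold change among these 7 on day 13, the whole promoter of 300 bases is shown.
Ctsa (chr2:164833730-164833814, plus strand): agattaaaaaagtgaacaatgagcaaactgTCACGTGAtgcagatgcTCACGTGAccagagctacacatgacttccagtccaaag
Ctsd (chr7:142387889-142387956, minus strand): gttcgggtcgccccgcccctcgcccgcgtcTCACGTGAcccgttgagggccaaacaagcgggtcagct
Mcoln1 (chr8:3500443-3500510, plus strand): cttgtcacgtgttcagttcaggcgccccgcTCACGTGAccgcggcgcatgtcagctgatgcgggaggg
Atp6v0d1 (chr8:105566031-105566098, minus strand): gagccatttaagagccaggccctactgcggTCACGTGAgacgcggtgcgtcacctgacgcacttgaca
Atp6v1a (chr16:44139354-44139421, minus strand): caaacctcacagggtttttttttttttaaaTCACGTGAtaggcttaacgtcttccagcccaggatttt
Atp6v0e (chr17:26676368-26676435, plus strand): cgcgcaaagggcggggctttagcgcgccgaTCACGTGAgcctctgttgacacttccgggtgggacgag
Gla (chrX:134600956-134601255, minus strand): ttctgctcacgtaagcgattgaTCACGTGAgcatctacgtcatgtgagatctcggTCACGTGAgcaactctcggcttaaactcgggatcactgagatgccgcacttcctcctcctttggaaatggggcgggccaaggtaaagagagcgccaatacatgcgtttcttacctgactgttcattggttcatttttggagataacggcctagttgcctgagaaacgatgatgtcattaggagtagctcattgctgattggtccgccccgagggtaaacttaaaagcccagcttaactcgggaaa

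*Ctsa* and *Gla* each held the palindrome at 2 places. In *Ctsa* the first began 13 bases before the start site and the second at base 5 after it, and in *Gla* they began 228 and 195 bases before it. The single sites began 99 bases before the start in *Ctsd*, 46 in *Mcoln1*, 132 in *Atp6v1a* and 4 in *Atp6v0d1*, and at base 3 after it in *Atp6v0e*. *Gpnmb*, the member with the largest fold change on day 13, held none of these letters in its promoter, which is shown whole for contrast and has no capitals.
Gpnmb (chr6:49036268-49036567, plus strand): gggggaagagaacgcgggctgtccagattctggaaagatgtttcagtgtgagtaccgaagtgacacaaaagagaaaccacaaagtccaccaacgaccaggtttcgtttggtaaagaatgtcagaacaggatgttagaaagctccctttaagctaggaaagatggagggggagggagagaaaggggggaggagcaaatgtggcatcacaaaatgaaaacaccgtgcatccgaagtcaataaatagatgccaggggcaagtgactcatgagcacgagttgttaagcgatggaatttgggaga

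Lysosomal genes rose stepwise in number over the days after *Tsc1* deletion and under rapamycin none was called above control. On day 4, 9 of 45 members rose, beside 2.61% of the 25308 genes tested, led by *Gpnmb* and *Flcn*. None fell by edgeR (1.56% of genes fell), 1 was lower at an unadjusted p under 0.05, and DESeq2 called none lower. On day 6, 23 rose (6.24% of 25057 genes) and 2 fell (3.81%). On day 8, 30 rose (8.41% of 25085 genes) and 2 fell (4.87%). On day 13, 35 rose (15.6% of 24920 genes) and 1 fell (11.3%). The median log2 fold change of the 45 members was 0.07, 0.17, 0.34 and 0.47 on days 4, 6, 8 and 13, against medians of all tested genes between -0.04 and -0.005. These 4 comparisons share the same control mice. In Rap 4 mice, 6 members fell against control (2.31% of 25006 genes fell) and none rose by edgeR (1.26% of genes rose); at an unadjusted p under 0.05, 2 were higher, and DESeq2 called none higher. Against day 13, 35 members were lower in Rap 4 mice (17.7% of 24274 genes were lower) and none was higher by edgeR on the 8 mice, at an unadjusted p under 0.05 or by DESeq2 (13.1% of genes were higher). When all 24 mice shared one estimate of the spread, 38 were lower and 2 higher, beside 11592 of 27110 genes called. Without day 13 mouse D, 35 were lower and 1 higher, beside 8304 of 24986 genes called. Across the 6 groups, 41 of 45 members differed by the F test, beside 41.9% of 27110 genes.

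**Figure D1:**
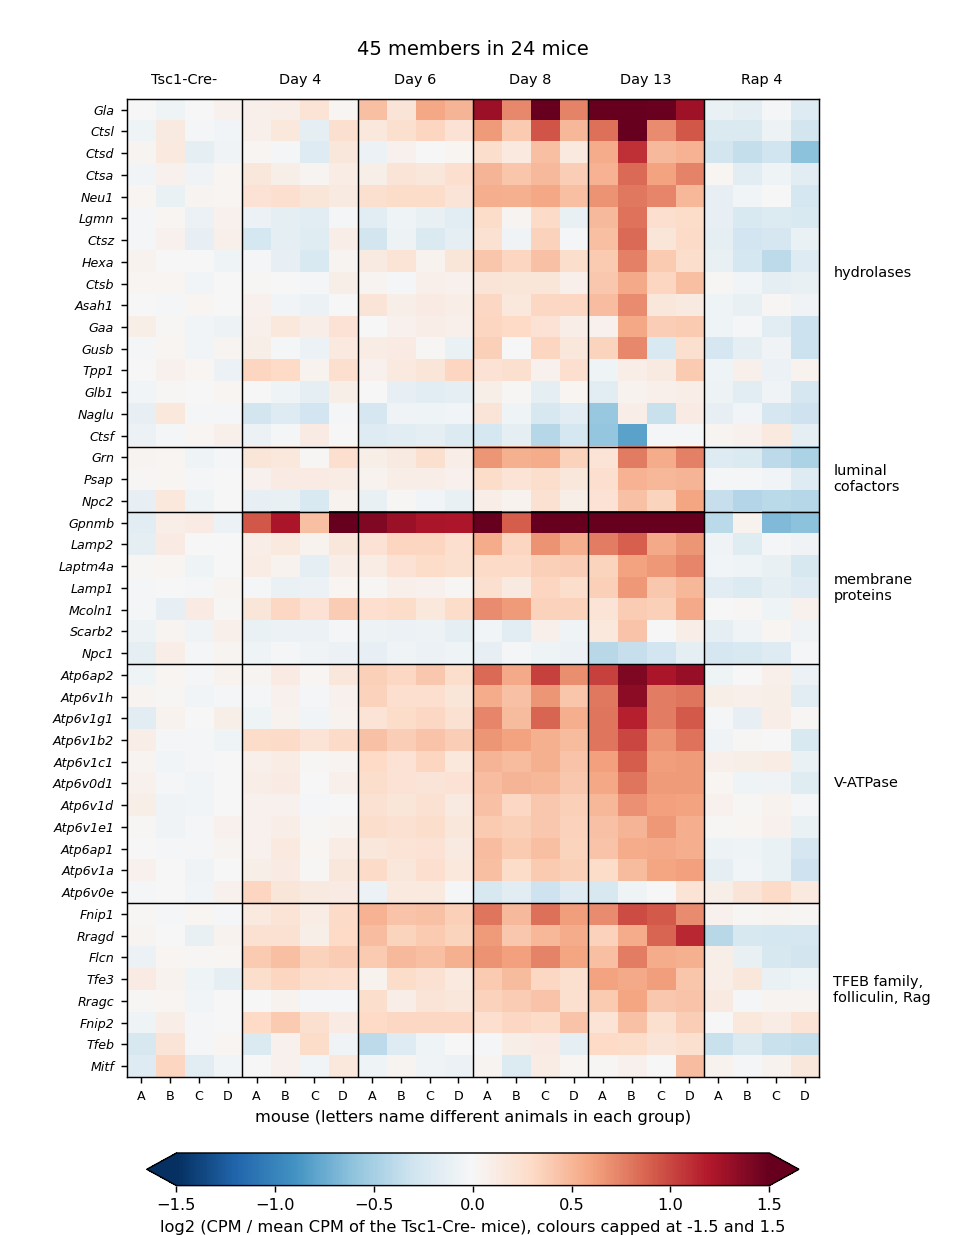
Level of each of the 45 members (rows, by class and by their fold change on day 13) in each of the 24 mice (columns), as the log2 ratio of its CPM to the mean of the 4 control mice, with colours capped at -1.5 and 1.5. Red spreads through the V-ATPase rows from day 6 to day 13, where 10 of 11 members rose (15.6% of all genes rose on day 13), and the Rap 4 columns are pale or blue in most rows.

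Most of these differences were small folds. With the study's own fold minimum (an absolute log2 fold change over 0.5 beside the adjusted p), 1 member was called on day 4 (0.68% of genes), 1 on day 6 (1.32%), 14 on day 8 (3.99%) and 22 on day 13 (16.5%). Under this rule 0 members were called in Rap 4 mice against control (1.41% of genes) and 30 against day 13 (21.1%). When all 24 mice shared one estimate of the spread, fewer members and fewer genes in all were called early: 1 member (*Flcn*) and 52 of 27110 genes on day 4, and 9 members and 292 genes on day 6. On day 8 it was 30 members and 3173 genes, and on day 13 38 members and 10557 genes. The count for Rap 4 against control was then 1 (*Npc2*), beside 327 genes. With single mice left out it was 2 without control mouse B (470 genes in all) and 3 without control mouse D (505) or Rap 4 mouse C (625). On day 4 it was 3 without control mouse D (426 genes in all) or day 4 mouse B (323). It was 5 without control mouse B (599) or day 4 mouse A (584), and 5 where *Xist* entered the fit as a covariate (432). With day 13 mice C and D alone 34 members were called, all of them higher, beside 5389 of 25888 genes. With day 8 mice B and D alone it was 27, all higher, beside 1732 of 26235 genes, and *Lamp1*, *Psap*, *Gaa*, *Ctsf*, *Atp6v0e* and *Tfe3* lost their calls there.

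**Figure D2:**
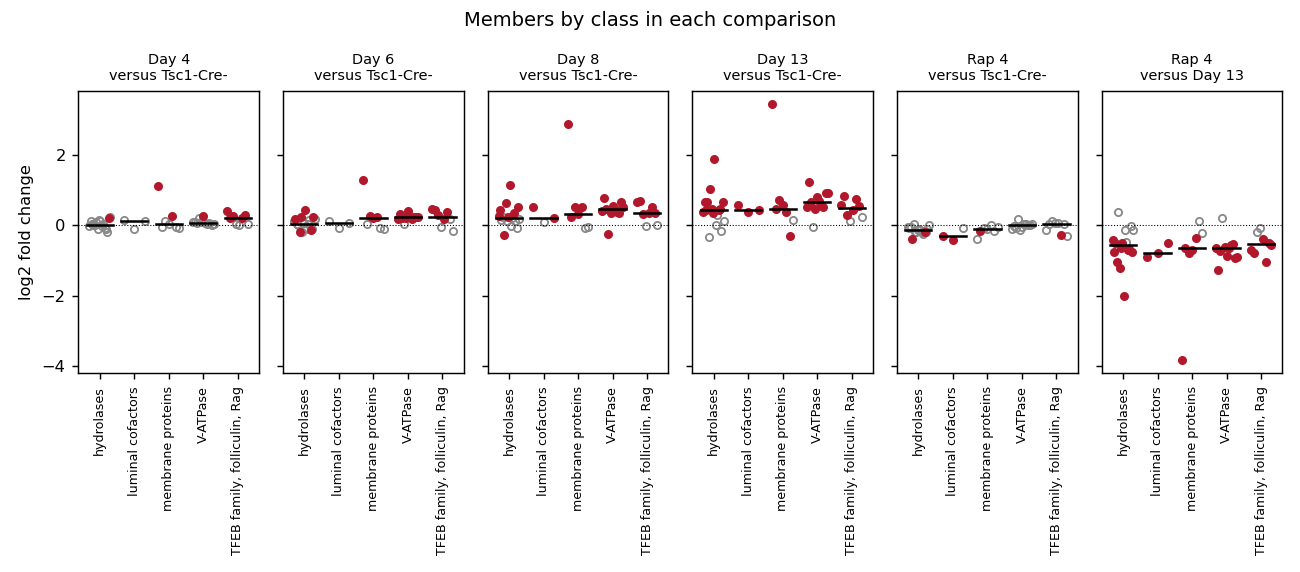
Log2 fold change of each member (points) in the 6 comparisons, by class, with the class median as a bar; filled points are called at an adjusted p under 0.05. The V-ATPase median moved from 0.08 on day 4 to 0.65 on day 13 and was -0.004 in Rap 4 mice against control.

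Some markers of glia and myeloid cells also differed from control, not always in the direction of the members. The median log2 fold change of 12 microglial markers was -0.195, -0.285, -0.102 and 0.052 on days 4, 6, 8 and 13. Among all genes 2.61%, 6.24%, 8.41% and 15.6% rose on these days. The shares of all genes that fell were 1.56%, 3.81%, 4.87% and 11.3%, and 2.31% in Rap 4 mice. The summed level of 12 microglial markers was 260 to 306 CPM in controls, 218 to 270.1 CPM on day 4, 226 to 239.7 CPM on day 6, 228 to 294 CPM on day 8, 271 to 434 CPM on day 13 and 183 to 209 CPM in Rap 4 mice. Of these 12 markers, 6 fell on day 6, 3 rose on day 13 (*C1qa*, *C1qb* and *C1qc*, subunits of complement C1q, with log2 fold changes of 0.73, 1.05 and 0.97) and 9 fell in Rap 4 mice. Among 9 markers of activated myeloid cells, whose summed level was 42.6 to 52.7 CPM in controls and 69.8 to 238 CPM on day 13, 8 were tested on day 13 and 3 rose (*Cd44*, *Lgals3* and *Spp1*). *Itgax*, *Clec7a*, *Cst7* and *Cd74* stayed below 2.14 CPM in every mouse. Of 7 astrocyte markers, 2 rose on day 13 (*Gfap*, 1.91, and *Vim*, 2.29) and *Gja1* fell (-0.93). On day 4, 1 of them fell, on day 6, 5, and on day 8, 2. Oligodendrocyte markers were lower on day 6 (2 of 6 fell), on day 8 (3 of 6 fell) and in Rap 4 mice (3 of 6 fell), with a summed level of 2932 to 4557 CPM in controls and 2536 to 3455 CPM in Rap 4 mice. Of 8 pyramidal and granule neuron markers, 1 rose on each of the 4 days and 1 fell in Rap 4 mice. Lysosomal genes are expressed in all of these cells, and the part of the glial and myeloid markers in the values below was not tested. In bulk tissue, fewer cells of a type and less RNA per cell cannot be told apart.

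The regulators of lysosomal transcription differed from each other: folliculin and its partners rose on every day, while *Tfeb* and *Mitf* were called on none. Of the 8 genes of this class, 5 rose on each of days 4 and 6, and 6 on each of days 8 and 13. The shares of all genes that rose were 2.61%, 6.24%, 8.41% and 15.6% on these days. In controls these genes were expressed at low levels per length, with the transcription factors lowest: *Tfeb* at 1.81 ± 0.218, *Tfe3* at 2.21 ± 0.175 and *Mitf* at 2.64 ± 0.463 CPM per kb of exon (SD, n = 4), and *Rragd* highest at 20.4 ± 1.04 CPM per kb. These values do not separate protein or its location in the cell, on which this family is known to be regulated.

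*Flcn* encodes folliculin, a GTPase-activating protein for RagC and RagD (ENSMUSG00000032633.12, chromosome 11, 59791408 to 59810016, minus strand of GRCm38). *Flcn* stood at 42.5, 46.0, 45.8 and 46.1 CPM in control mice A to D, 59.1, 61.9, 57.3 and 58.9 CPM on day 4 and 59.2, 63.1, 61.8 and 65.1 CPM on day 6. Its level was 72.2, 69.4, 75.5 and 68.1 CPM on day 8, 61.5, 77.0, 66.3 and 65.3 CPM on day 13 and 48.0, 41.8, 38.3 and 37.2 CPM in Rap 4 mice. All 16 untreated *Tsc1-Cre*+ mice lay above all controls, from day 4 on. The log2 fold change was 0.40, SE 0.0417, adjusted p = 6.76e-04 on day 4, the smallest adjusted p of the members on that day. On day 6 it was 0.46, SE 0.0429, adjusted p = 3.57e-05, and the later values were 0.65 (day 8) and 0.56 (day 13). In Rap 4 mice, which overlapped the controls, it was -0.13, SE 0.0728, adjusted p = 0.384.

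*Fnip1* and *Fnip2* encode the partners of folliculin. *Fnip1* stood at 100.2, 97.9, 101 and 97.0 CPM in control mice A to D, 109.5, 115, 107 and 121 CPM on day 4 and 143, 134, 135 and 127 CPM on day 6. Its level was 173, 139, 176 and 154 CPM on day 8, 162, 196, 188 and 162 CPM on day 13 and 104, 100.3, 102 and 100.1 CPM in Rap 4 mice. All 16 untreated *Tsc1-Cre*+ mice lay above all controls. *Fnip1* rose on all 4 days, with log2 fold changes of 0.19, 0.43, 0.68 and 0.82 (adjusted p = 0.0229 on day 4 and 2.85e-04 on day 13), and was 0.04 under rapamycin (adjusted p = 0.689). *Fnip2* stood at 53.7, 60.3, 55.0 and 56.0 CPM in control mice A to D, 69.4, 73.5, 66.5 and 61.3 CPM on day 4 and 69.5, 69.8, 69.6 and 69.7 CPM on day 6. Its level was 66.9, 69.9, 68.6 and 75.8 CPM on day 8, 64.9, 76.1, 66.5 and 72.7 CPM on day 13 and 55.8, 62.8, 60.7 and 65.0 CPM in Rap 4 mice. Its fold change stayed nearly level, at 0.27, 0.30, 0.31 and 0.30 on days 4, 6, 8 and 13, each called and each without overlap with the controls. Rap 4 mice overlapped the day 13 mice and were not called against them (-0.19, SE 0.0782, adjusted p = 0.0916).

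The Rag GTPase genes *Rragc* and *Rragd* both rose, *Rragd* earlier. *Rragd* stood at 109, 106, 97.8 and 109.7 CPM in control mice A to D, 123, 123, 112 and 129.9 CPM on day 4 and 145, 133, 138 and 133 CPM on day 6. Its level was 164, 139, 149 and 155 CPM on day 8, 134, 155, 193 and 230.2 CPM on day 13 and 79.3, 89.2, 87.8 and 88.7 CPM in Rap 4 mice. It rose on day 4 (0.21, SE 0.0499, adjusted p = 0.0341), and its day 13 mice spread widely, with mice C and D above A and B. On day 13 the log2 fold change was 0.74, SE 0.153, adjusted p = 0.00820. All Rap 4 mice lay below all controls (-0.29, SE 0.0530, adjusted p = 0.0106). *Rragc* stood at 48.7, 49.3, 46.9 and 47.9 CPM in control mice A to D, 48.0, 50.2, 47.1 and 47.4 CPM on day 4 and 57.9, 51.5, 54.9 and 54.2 CPM on day 6. Its level was 61.0, 62.6, 65.0 and 57.0 CPM on day 8, 63.0, 72.9, 63.7 and 64.7 CPM on day 13 and 52.9, 47.8, 49.4 and 49.5 CPM in Rap 4 mice. It was called on day 6 (0.17), day 8 (0.34) and day 13 (0.44, SE 0.0626, adjusted p = 0.00169), and its mice overlapped the controls on day 4 (0.00) and in the Rap 4 group (0.05, SE 0.0474, adjusted p = 0.639).

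Of the transcription factors, *Tfe3* rose and *Mitf* was not called. *Tfeb* was not called against control but was lower in Rap 4 than in day 13 mice. *Tfe3* stood at 22.3, 21.3, 19.6 and 18.7 CPM in control mice A to D, 24.6, 25.6, 24.6 and 24.4 CPM on day 4 and 21.2, 24.8, 24 and 22.6 CPM on day 6. Its level was 26.9, 28.4, 25.4 and 24.1 CPM on day 8, 31.2, 30.4, 31.5 and 27.4 CPM on day 13 and 22.0, 23.0, 19.0 and 19.6 CPM in Rap 4 mice. All mice of days 4, 8 and 13 lay above all controls. It was higher on day 4 (0.28, SE 0.0611, adjusted p = 0.0259), missed the threshold on day 6 (0.17, SE 0.0691, adjusted p = 0.145) and was higher on day 8 (0.34, SE 0.0759, adjusted p = 0.0143) and day 13 (0.54, SE 0.0852, adjusted p = 0.00258). *Tfeb* stood at 8.68, 11.7, 10.2 and 10.4 CPM in control mice A to D, 8.78, 10.7, 12.4 and 9.91 CPM on day 4 and 7.79, 8.95, 9.80 and 10.2 CPM on day 6. Its level was 10.1, 10.9, 11.1 and 9.31 CPM on day 8, 12.6, 12.4, 11.7 and 12.1 CPM on day 13 and 8.12, 8.78, 8.12 and 7.98 CPM in Rap 4 mice. The days overlapped the controls, with 0.23, SE 0.107, adjusted p = 0.132 on day 13, and Rap 4 mice overlapped them as well (-0.31, SE 0.0974, adjusted p = 0.103), but all Rap 4 mice lay below all day 13 mice (-0.55, SE 0.0959, adjusted p = 0.00279). *Mitf* stood at 14.3, 20.5, 14.6 and 15.9 CPM in control mice A to D, 16.2, 17.1, 15.9 and 18.3 CPM on day 4 and 15.6, 16.8, 15.8 and 15.4 CPM on day 6. Its level was 16.8, 14.2, 17.6 and 16.6 CPM on day 8, 16.5, 17.2, 16.3 and 22.6 CPM on day 13 and 17.0, 16.2, 16.9 and 18.5 CPM in Rap 4 mice. Day 13 mouse D stood above the other day 13 mice, and no comparison called *Mitf* (0.13, SE 0.151, adjusted p = 0.554 on day 13).

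In this class, several early calls depended on single mice. On day 4, the call of *Fnip1* was lost without control mouse B (0.19), control mouse D (0.18) or day 4 mouse B (0.19), with the log2 fold change in parentheses. The day 4 call of *Fnip2* was lost without control mouse D (0.27), day 4 mouse A (0.25) or day 4 mouse B (0.23). That of *Rragd* was lost without control mouse B (0.22), control mouse C (0.18), control mouse D (0.23), day 4 mouse A (0.21), day 4 mouse B (0.21) or day 4 mouse D (0.18). That of *Tfe3* was lost without control mouse C (0.26), control mouse D (0.24), day 4 mouse A (0.28), day 4 mouse B (0.26) or day 4 mouse C (0.28), and its day 8 call without control mouse C (0.32). *Rragc* was not called on day 6 without control mouse C (0.16), day 6 mouse A (0.14) or day 6 mouse C (0.17). *Flcn* kept its call on each day with each mouse left out. With all 24 mice in one fit, *Tfe3* (adjusted p = 0.1585), *Fnip1* (0.327), *Fnip2* (0.0905) and *Rragd* (0.536) lost their day 4 calls. *Rragc* (0.111) and *Rragd* (0.0787) lost their day 6 calls there.

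The V-ATPase genes moved together: 1 of 11 members rose on day 4 and 10 on each of days 6, 8 and 13, and the exception from day 6 on was *Atp6v0e* each time. Among all genes 2.61%, 6.24%, 8.41% and 15.6% rose on the 4 days. The median log2 fold change of the class was 0.08, 0.22, 0.46 and 0.65 on these days. The 10 fold changes on day 13 ran from *Atp6v1a* (0.47) to *Atp6ap2* (1.23). In Rap 4 mice the median was -0.004 and edgeR called 0 of 11 members (1.26% of all genes rose and 2.31% fell). At an unadjusted p under 0.05, 1 was higher and 2 lower, and DESeq2 called none. Against day 13, 10 of 11 were lower in Rap 4 mice (17.7% of all genes were lower). The enzyme has a membrane sector, V0, through which protons pass, and a cytosolic sector, V1, which hydrolyses ATP, and both sectors were represented among the risers.

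**Figure D3:**
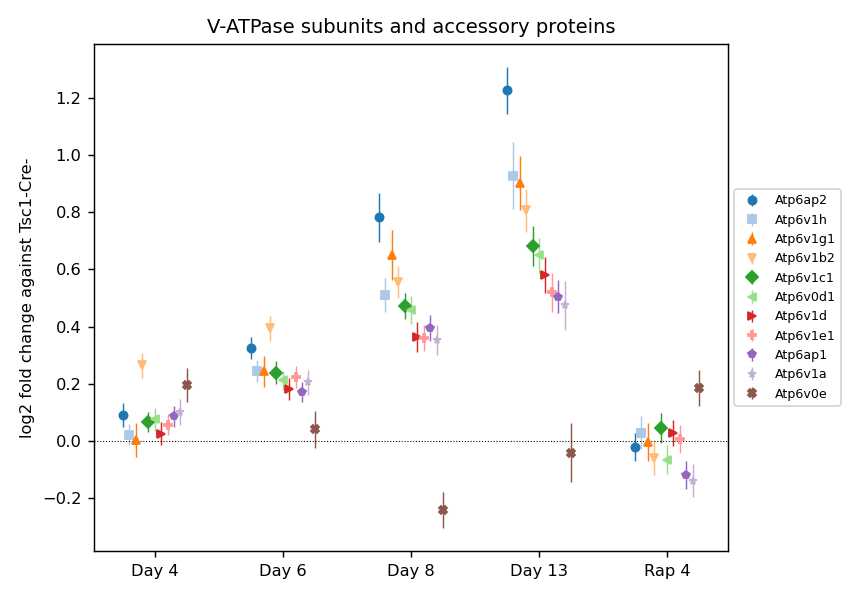
Log2 fold change against control (y axis, with SE bars) of the 11 V-ATPase members on days 4, 6, 8 and 13 and in Rap 4 mice (x axis). *Atp6ap2* reached 1.23 on day 13, *Atp6v0e* was -0.24 on day 8, and Rap 4 values lay between -0.14 and 0.19.

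*Atp6ap2* encodes an accessory protein of the pump, also called the prorenin receptor (ENSMUSG00000031007.2, chromosome X, 12587801 to 12617049, plus strand). *Atp6ap2* stood at 133, 141, 136 and 144 CPM in control mice A to D, 142, 151, 141 and 156 CPM on day 4 and 178, 171, 184 and 166 CPM on day 6. Its level was 249.3, 206, 283 and 224 CPM on day 8, 282, 366, 324 and 343 CPM on day 13 and 133, 138, 146 and 130.4 CPM in Rap 4 mice. All mice of days 6, 8 and 13 lay above all controls. The log2 fold change was 0.09 on day 4 (adjusted p = 0.267) and 0.33 and 0.78 on days 6 and 8. By day 13 it was 1.23, SE 0.0813, adjusted p = 9.63e-05, a 2.34-fold level. In Rap 4 mice it was -0.02, SE 0.0493, adjusted p = 0.878.

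The regulatory subunit H gene *Atp6v1h* and the stalk subunit G gene *Atp6v1g1* followed. *Atp6v1h* stood at 124, 122, 117 and 118 CPM in control mice A to D, 118, 126, 119 and 126 CPM on day 4 and 153, 143, 144 and 136 CPM on day 6. Its level was 177, 163, 191 and 161 CPM on day 8, 209, 306, 206 and 210.1 CPM on day 13 and 128, 127, 128 and 108 CPM in Rap 4 mice. Day 13 mouse B stood apart from the other 3 day 13 mice, which still lay above all controls and all day 8 mice. Its log2 fold change on day 13 was 0.93, SE 0.117, adjusted p = 0.00105. *Atp6v1g1* stood at 31.7, 36.9, 35.6 and 37.7 CPM in control mice A to D, 34.1, 36.8, 34.5 and 36.9 CPM on day 4 and 40.9, 42.8, 43.9 and 41.5 CPM on day 6. Its level was 59.1, 49.3, 64.9 and 51.7 CPM on day 8, 62.1, 79.6, 60.4 and 67.0 CPM on day 13 and 35.1, 32.6, 37.9 and 35.8 CPM in Rap 4 mice. Day 4 and Rap 4 mice overlapped the controls, and the day 13 fold change was 0.90, SE 0.0940, adjusted p = 5.23e-04.

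*Atp6v1b2* encodes the brain form of subunit B and was the one member of the class called on day 4 (0.27, SE 0.0433, adjusted p = 0.00711). *Atp6v1b2* stood at 356, 330.3, 327 and 319.7 CPM in control mice A to D, 402, 406, 385 and 407 CPM on day 4 and 453, 431, 449.9 and 430.1 CPM on day 6. Its level was 526, 507, 482 and 464 CPM on day 8, 580.3, 668, 532 and 585 CPM on day 13 and 322, 337, 333 and 285 CPM in Rap 4 mice. All 16 untreated *Tsc1-Cre*+ mice lay above all controls. The fold change was 0.39 and 0.56 on days 6 and 8 and 0.81, SE 0.0744, adjusted p = 3.26e-04 on day 13. *Atp6v1c1* encodes subunit C, which links the V1 sector to the membrane sector. *Atp6v1c1* stood at 165, 155, 159 and 161 CPM in control mice A to D, 169, 173, 162 and 165 CPM on day 4 and 198, 186, 199.9 and 178 CPM on day 6. Its level was 227, 223, 232 and 215 CPM on day 8, 245, 301, 248 and 249.5 CPM on day 13 and 168, 169.9, 173 and 149.5 CPM in Rap 4 mice. All mice of days 6, 8 and 13 lay above all controls, and mouse B was the highest of day 13. On day 13 the fold change was 0.68, SE 0.0714, adjusted p = 5.38e-04. *Atp6v0d1* encodes subunit d of the membrane sector and is one of the genes with TCACGTGA. *Atp6v0d1* stood at 119, 111, 110.2 and 112 CPM in control mice A to D, 121, 124, 113 and 119 CPM on day 4 and 135, 131, 129 and 132 CPM on day 6. Its level was 156, 161, 160.3 and 149.6 CPM on day 8, 169.6, 198, 176 and 177 CPM on day 13 and 115, 108, 109 and 100.1 CPM in Rap 4 mice. Its fold change was 0.21 on day 6 and 0.65, SE 0.0624, adjusted p = 3.91e-04 on day 13, with all mice of days 6, 8 and 13 above all controls.

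The 4 other risers, *Atp6v1d*, *Atp6v1e1*, *Atp6ap1* and *Atp6v1a*, had day 13 fold changes of 0.58, 0.52, 0.51 and 0.47, and each was called on days 6, 8 and 13 without overlap with the controls. *Atp6v1e1* overlaps *Slc25a18* on the opposite strand, and reads of the overlap could not be told apart. The small membrane subunit gene *Atp6v0e* stood at 19.6, 19.8, 19.3 and 20.8 CPM in controls, 16.8, 17.8, 16.0 and 17.3 CPM on day 8 and 16.8, 19.0, 19.7 and 22.9 CPM on day 13. All its day 8 mice lay below all controls (-0.24, SE 0.0632, adjusted p = 0.0302), but this call was lost without control mouse A (-0.25), control mouse B (-0.24), control mouse C (-0.26), control mouse D (-0.22), day 8 mouse A (-0.23) or day 8 mouse C (-0.21), and its log2 fold change with day 8 mice B and D alone was -0.185 (adjusted p = 0.191). It was -0.04, SE 0.104, adjusted p = 0.799 on day 13, and 0.20 on day 4 with all mice above the controls (adjusted p = 0.0949). The other 10 kept their calls on days 6, 8 and 13 with each mouse left out. With all 24 mice in one fit, *Atp6v1a* (adjusted p = 0.122), *Atp6v1g1* (0.165), *Atp6v1h* (0.205) and *Atp6ap1* (0.0640) lost their day 6 calls. *Atp6v1b2* lost its day 4 call there (0.0905). Under the study's fold minimum 0 of 11 members were called on days 4 and 6, 4 on day 8 and 9 on day 13. The shares of all genes were 0.68%, 1.32%, 3.99% and 16.5%.

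The 7 membrane proteins divided: *Gpnmb* showed the largest fold change of all 45 members on every day, *Lamp2*, *Laptm4a* and *Mcoln1* rose from day 6 or before, *Lamp1* rose from day 8, *Scarb2* was never called, and *Npc1* fell on day 13. The counts were 2, 4 and 5 higher on days 4, 6 and 8 (2.61%, 6.24% and 8.41% of all genes). On day 13, 5 were higher and 1 lower (15.6% and 11.3% of all genes).

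*Gpnmb* encodes a transmembrane glycoprotein of lysosomes and melanosomes, named as a target gene of the MITF and TFE factors (ENSMUSG00000029816.10, chromosome 6, 49036546 to 49070929, plus strand). *Gpnmb* stood at 5.47, 6.51, 6.64 and 5.71 CPM in control mice A to D, 11.6, 14.2, 8.30 and 18.3 CPM on day 4 and 15.9, 14.9, 14.2 and 14.1 CPM on day 6. Its level was 49.6, 11.4, 95.0 and 23.6 CPM on day 8, 49.9, 108, 55.6 and 56.2 CPM on day 13 and 4.58, 6.31, 3.83 and 3.96 CPM in Rap 4 mice. All 16 untreated *Tsc1-Cre*+ mice lay above all controls, and the day 8 and day 13 mice spread widely. Its log2 fold change was 1.11, SE 0.189, adjusted p = 0.00828 on day 4 and 1.27, SE 0.0813, adjusted p = 2.15e-06 on day 6. It was 2.87, SE 0.519, adjusted p = 0.00552 on day 8. On day 13 it was 3.44, SE 0.237, adjusted p = 1.16e-04, a 10.9-fold level. Rap 4 mice overlapped the controls (-0.38, SE 0.152, adjusted p = 0.204) and lay below all day 13 mice (-3.83, SE 0.272, adjusted p = 9.63e-05). With all 24 mice in one fit, its adjusted p was 0.338 on day 4 and 0.131 on day 6. Per kb of exon it stood at 0.934 ± 0.0889 CPM (SD, n = 4) in controls, the lowest of the 45 members, and 10.3 ± 4.14 CPM on day 13. *Gpnmb* is also known from activated microglia and macrophages. The summed level of the 9 activated myeloid markers was 42.6 to 52.7 CPM in controls, 31.8 to 46.9 CPM on day 4, 56.6 to 67.5 CPM on day 6, 63.3 to 79.0 CPM on day 8 and 34.6 to 46.3 CPM in Rap 4 mice, so that it lay above all controls on days 6, 8 and 13. On day 8, 1 of the 9 rose (*Lpl*, 0.52), beside 8.41% of all genes. The median log2 fold change of the 9 was 0.52, from -0.38 (*Clec7a*) to 1.73 (*Cd44*, adjusted p = 0.121). On day 6, of 8 tested, *Lpl* rose (0.46) and *Clec7a* fell (-0.97), beside 6.24% and 3.81% of all genes. Of these 8, 4 had a positive log2 fold change, and the median was 0.003. *Lpl* made up most of the summed level in controls and on day 6, with means of 36.95 and 51.29 CPM. The part of these cells in the level of *Gpnmb* was not tested.

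**Figure D4:**
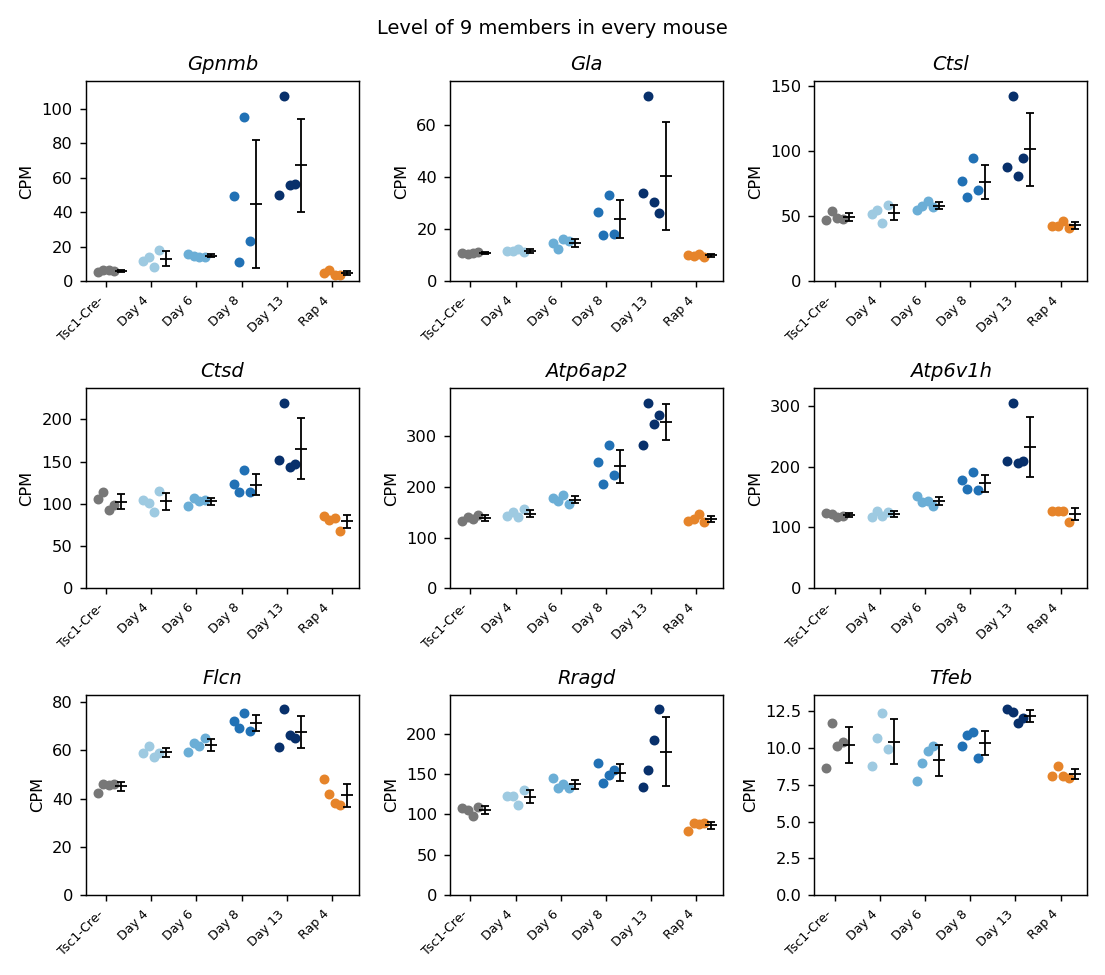
CPM of 9 members in every mouse (points, mice A to D from left to right) with the group mean and SD (bars), each panel with its own linear axis from 0. *Gpnmb* and *Gla* spread most on days 8 and 13, *Flcn* lies above control from day 4, *Ctsd* and *Rragd* lie below control in Rap 4 mice, and *Tfeb* overlaps control on each day.

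The LAMP proteins are the most abundant glycoproteins of the lysosomal membrane, and LAMP2 also serves chaperone-mediated autophagy. *Lamp2* stood at 71.4, 85.5, 78.2 and 78.9 CPM in control mice A to D, 83.9, 86.9, 81.4 and 88.1 CPM on day 4 and 91.2, 97.9, 98.3 and 93.3 CPM on day 6. Its level was 116, 98.0, 125 and 115 CPM on day 8, 133, 146, 117 and 124 CPM on day 13 and 75.8, 69.4, 76.8 and 75.6 CPM in Rap 4 mice. Day 4 and Rap 4 mice overlapped the controls. It rose on day 6 (0.27), day 8 (0.52) and day 13 (0.71, SE 0.0803, adjusted p = 6.89e-04). *Lamp1* stood at 143, 146, 143 and 150.0 CPM in control mice A to D, 143, 136, 137 and 148 CPM on day 4 and 147, 154, 152 and 148 CPM on day 6. Its level was 172, 159, 182 and 175 CPM on day 8, 186, 228, 192 and 205 CPM on day 13 and 131, 126, 132 and 127 CPM in Rap 4 mice. On days 8 and 13 each mouse lay above all controls. It rose on day 8 (0.23, SE 0.0515, adjusted p = 0.0158) and day 13 (0.46, SE 0.0688, adjusted p = 0.00208), and all Rap 4 mice lay below all controls (-0.17, SE 0.0424, adjusted p = 0.0404). *Laptm4a*, a small protein of the lysosomal membrane, rose from day 6. *Laptm4a* stood at 105, 106, 99.5 and 104 CPM in control mice A to D, 112, 108, 94.4 and 111 CPM on day 4 and 112, 121, 125 and 122 CPM on day 6. Its level was 126, 126, 133 and 134 CPM on day 8, 131, 158, 162 and 172 CPM on day 13 and 101, 98.8, 96.1 and 88.1 CPM in Rap 4 mice. On days 6, 8 and 13 its mice did not overlap the controls. Its fold change was 0.20 on day 6 and 0.57, SE 0.0870, adjusted p = 0.00227 on day 13.

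*Mcoln1* encodes TRPML1, the lysosomal cation channel through which calcium leaves the lysosome. *Mcoln1* stood at 31.2, 29.1, 34.4 and 31.96 CPM in control mice A to D, 35.9, 39.2, 36.8 and 41.2 CPM on day 4 and 37.6, 38.3, 35.3 and 38.5 CPM on day 6. Its level was 51.9, 49.2, 40.3 and 40.3 CPM on day 8, 36.4, 41.4, 40.4 and 46.8 CPM on day 13 and 31.4, 31.9, 30.2 and 33.1 CPM in Rap 4 mice. All 16 untreated *Tsc1-Cre*+ mice lay above all controls. It rose on each day and was highest on day 8 by fold change (0.51, SE 0.0897, adjusted p = 0.00497), with 0.36, SE 0.0918, adjusted p = 0.0184 on day 13. Rap 4 mice overlapped the controls (0.002). *Npc1*, which exports cholesterol from the lysosome, went the other way. *Npc1* stood at 83.7, 98.1, 90.2 and 94.3 CPM in control mice A to D, 87.9, 90.1, 88.4 and 86.3 CPM on day 4 and 84.3, 88.0, 86.3 and 87.6 CPM on day 6. Its level was 83.9, 90.3, 87.6 and 86.3 CPM on day 8, 68.7, 72.1, 75.2 and 82.9 CPM on day 13 and 77.0, 78.4, 80.3 and 89.7 CPM in Rap 4 mice. All day 13 mice lay below all controls (-0.31, SE 0.0813, adjusted p = 0.0202). Reads of *Npc1* may include those of *Rmc1*, which overlaps it on the opposite strand. *Scarb2*, which encodes a receptor of the lysosomal membrane, was 0.16, SE 0.0865, adjusted p = 0.189 on day 13 with overlapping mice.

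Several calls in this class were lost with single mice left out. The call of *Mcoln1* was lost on day 4 without control mouse B (0.24), control mouse D (0.28), day 4 mouse B (0.27) or day 4 mouse D (0.24), on day 6 without control mouse B (0.19), day 6 mouse B (0.22) or day 6 mouse D (0.22) and on day 13 without control mouse A (0.36), control mouse B (0.32) or control mouse D (0.37). The fall of *Npc1* lost its call without control mouse B (-0.28), control mouse C (-0.32) or control mouse D (-0.30) and with day 13 mice C and D alone (-0.22, adjusted p = 0.0665). *Lamp1* lost its day 8 call without control mouse C (0.22), and its call in Rap 4 mice without control mouse B (-0.17), control mouse C (-0.18), control mouse D (-0.16), Rap 4 mouse A (-0.18), Rap 4 mouse B (-0.17) or Rap 4 mouse C (-0.19). *Gpnmb*, *Lamp2* and *Laptm4a* kept theirs, but the day 8 value of *Gpnmb* moved most with single mice: without day 8 mouse C its log2 fold change was 2.20, and with day 8 mice B and D alone it was 1.52. With all 24 mice in one fit, the day 6 calls of *Lamp2* (adjusted p = 0.0554), *Laptm4a* (0.142) and *Mcoln1* (0.172) were lost. The day 4 call of *Mcoln1* was lost there as well (0.209).

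The hydrolases divided: *Gla*, *Ctsl*, *Ctsa* and *Neu1* were higher by day 6, and others rose later or were never called. Of 16, 1 rose on day 4 (2.61% of all genes), and 4 rose and 2 fell on day 6 (6.24% and 3.81%). On day 8, 7 rose and 1 fell (8.41% and 4.87%). On day 13, 11 rose (15.6%), with a median log2 fold change of 0.43. *Glb1*, *Gusb*, *Naglu* and *Tpp1* were called on no day, and *Ctsf* fell on days 6 and 8. Per kb of exon, control levels ran from 2.47 ± 0.0711 CPM for *Gusb* to 48.8 ± 2.47 CPM for *Gaa* (SD, n = 4).

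*Gla* encodes alpha-galactosidase A, the enzyme deficient in Fabry disease, and had the largest fold change of the hydrolases on days 6, 8 and 13 (ENSMUSG00000031266.7, chromosome X, 134588149 to 134601125, minus strand). *Gla* stood at 10.9, 10.4, 10.7 and 11.3 CPM in control mice A to D, 11.4, 11.6, 12.5 and 11.1 CPM on day 4 and 14.9, 12.4, 16.1 and 15.4 CPM on day 6. Its level was 26.4, 17.9, 33.3 and 18.2 CPM on day 8, 34.0, 71.1, 30.2 and 26.2 CPM on day 13 and 10.1, 9.76, 10.7 and 9.48 CPM in Rap 4 mice. All mice of days 6, 8 and 13 lay above all controls, with mouse B of day 13 at more than 2 times the level of each other day 13 mouse. The log2 fold change was 0.43, SE 0.0810, adjusted p = 0.00494 on day 6 and 1.13, SE 0.175, adjusted p = 0.00263 on day 8. By day 13 it was 1.88, SE 0.274, adjusted p = 0.00182. Rap 4 mice overlapped the controls (-0.11, SE 0.0763, adjusted p = 0.469).

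Cathepsins are the proteases of the lysosome. *Ctsl* stood at 47.2, 53.9, 48.3 and 47.8 CPM in control mice A to D, 52.0, 55.2, 44.9 and 58.5 CPM on day 4 and 55.0, 58.2, 61.6 and 57.4 CPM on day 6. Its level was 77.1, 64.6, 94.6 and 69.8 CPM on day 8, 87.6, 142, 80.8 and 94.3 CPM on day 13 and 42.4, 42.4, 46.7 and 40.6 CPM in Rap 4 mice. All mice of days 6, 8 and 13 lay above all controls. *Ctsl*, a cysteine cathepsin, rose on day 6 (0.23), day 8 (0.62) and day 13 (1.02, SE 0.153, adjusted p = 0.00213). All Rap 4 mice lay below all controls, without a call (-0.20, SE 0.0593, adjusted p = 0.0914). *Ctsd* stood at 105, 114, 92.4 and 99.0 CPM in control mice A to D, 105, 102, 90.1 and 115 CPM on day 4 and 96.8, 107, 103 and 104 CPM on day 6. Its level was 123, 113, 140.4 and 114 CPM on day 8, 151, 219.9, 144 and 147 CPM on day 13 and 85.0, 80.2, 83.7 and 67.3 CPM in Rap 4 mice. All day 13 mice lay above all controls and all Rap 4 mice below them. The aspartic cathepsin gene *Ctsd* was 0.24, SE 0.0809, adjusted p = 0.0723 on day 8 and rose on day 13 (0.67, SE 0.131, adjusted p = 0.00639), where mouse B stood above the others, and it fell in Rap 4 mice (-0.38, SE 0.0777, adjusted p = 0.0187). *Ctsa* stood at 57.4, 62.1, 57.0 and 60.3 CPM in control mice A to D, 66.4, 63.2, 61.0 and 64.0 CPM on day 4 and 62.9, 67.9, 66.4 and 70.4 CPM on day 6. Its level was 84.3, 78.7, 83.0 and 76.7 CPM on day 8, 85.0, 107, 89.6 and 99.2 CPM on day 13 and 60.6, 52.7, 56.7 and 52.9 CPM in Rap 4 mice. Day 4 and Rap 4 mice overlapped the controls. *Ctsa*, which protects neuraminidase and beta-galactosidase in one complex, rose on day 6 (0.17), day 8 (0.43) and day 13 (0.66, SE 0.0779, adjusted p = 7.88e-04). It overlaps *Pltp* on the opposite strand.

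*Neu1*, the sialidase of that complex, was the only hydrolase called on day 4 (0.20, SE 0.0470, adjusted p = 0.0352). *Neu1* stood at 39.9, 36.4, 40.2 and 40.0 CPM in control mice A to D, 45.6, 46.7, 44.2 and 42.9 CPM on day 4 and 46.2, 47.5, 47.2 and 44.6 CPM on day 6. Its level was 57.2, 56.7, 58.4 and 53.5 CPM on day 8, 62.3, 67.6, 65.0 and 55.0 CPM on day 13 and 35.9, 38.1, 38.9 and 32.5 CPM in Rap 4 mice. All mice of the 4 days lay above all controls, with 0.24 and 0.52 on days 6 and 8 and 0.66, SE 0.0750, adjusted p = 7.21e-04 on day 13. The third enzyme of the complex, *Glb1*, was -0.002, SE 0.0882, adjusted p = 0.990 on day 13, and *Tmppe* lies within it on the same strand. *Lgmn* encodes legumain, a protease that cleaves after asparagine. *Lgmn* stood at 70.7, 72.7, 67.5 and 75.0 CPM in control mice A to D, 67.5, 64.5, 63.5 and 70.7 CPM on day 4 and 63.6, 68.2, 66.3 and 63.8 CPM on day 6. Its level was 86.2, 73.4, 87.3 and 66.2 CPM on day 8, 101, 125, 84.9 and 86.4 CPM on day 13 and 65.4, 60.8, 61.8 and 60.8 CPM in Rap 4 mice. Day 6 mice overlapped the controls, while all day 13 mice lay above them and all Rap 4 mice below. It fell on day 6 (-0.14, SE 0.0393, adjusted p = 0.0416), rose on day 13 (0.45, SE 0.111, adjusted p = 0.0161) and fell in Rap 4 mice (-0.20, SE 0.0475, adjusted p = 0.0358).

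Of the other hydrolases, *Hexa*, which degrades gangliosides, rose on day 8 (0.35) and day 13 (0.44), and its Rap 4 mice all lay below control without a call (-0.24, SE 0.0628, adjusted p = 0.0517). *Asah1*, the acid ceramidase, rose on day 8 (0.26) and day 13 (0.37, SE 0.112, adjusted p = 0.0366), and *Gaa*, which degrades glycogen, on day 8 (0.22) and, with overlapping mice, on day 13 (0.35, SE 0.0985, adjusted p = 0.0295). The cathepsin genes *Ctsb* and *Ctsz* rose on day 13 (0.42 and 0.45), and each overlaps another gene on the opposite strand, *Fdft1* and *Nelfcd*. *Ctsf* fell on day 6 (-0.18, SE 0.0438, adjusted p = 0.0169) and day 8 (-0.28, SE 0.0667, adjusted p = 0.0194); on day 13 it stood at 29.3, 25.1, 42.9 and 43.0 CPM against 41.4, 43.4, 44.6 and 46.2 CPM in controls, so that mice A and B lay below all controls and C and D among them. *Naglu*, of heparan sulfate degradation, the beta-glucuronidase gene *Gusb* and the peptidase gene *Tpp1* had day 13 fold changes of -0.16, 0.29 and 0.13, with overlapping mice.

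The smaller changes of this class depended on single mice. *Asah1* lost its day 13 call without control mouse A (0.37), control mouse B (0.36), control mouse C (0.38), control mouse D (0.37), day 13 mouse A (0.35) or day 13 mouse B (0.26), and with day 13 mice C and D alone it was 0.15 (adjusted p = 0.0901). *Ctsz* lost it without control mouse A (0.44), control mouse B (0.47), control mouse C (0.40), control mouse D (0.47) or day 13 mouse A (0.46), and with day 13 mice C and D alone it was 0.23 (adjusted p = 0.0810). *Gaa* lost its day 13 call without control mouse B (0.35), control mouse C (0.33), control mouse D (0.32) or day 13 mouse B (0.28) and its day 8 call without control mouse B (0.23), control mouse C (0.21), control mouse D (0.20), day 8 mouse A (0.20) or day 8 mouse B (0.20). *Ctsf* lost its day 6 call without control mouse D (-0.16) and its day 8 call without control mouse B (-0.29), control mouse C (-0.28), control mouse D (-0.26) or day 8 mouse A (-0.28). *Lgmn* lost its day 6 call without control mouse A (-0.14), control mouse B (-0.13), control mouse D (-0.11), day 6 mouse A (-0.12), day 6 mouse C (-0.14) or day 6 mouse D (-0.13), its day 13 call without control mouse C (0.42) and its call in Rap 4 mice without control mouse A (-0.22), control mouse B (-0.19), control mouse D (-0.18), Rap 4 mouse B (-0.19) or Rap 4 mouse C (-0.20). *Ctsa* lost its day 6 call without control mouse C (0.15), day 6 mouse B (0.16), day 6 mouse C (0.17) or day 6 mouse D (0.14), and *Neu1* its day 4 call without control mouse B (0.17), control mouse C (0.21), control mouse D (0.21), day 4 mouse A (0.19), day 4 mouse B (0.18) or day 4 mouse C (0.21). *Ctsd* lost its call in Rap 4 mice without control mouse B (-0.32). *Gla* and *Ctsl* kept theirs with each mouse left out. With all 24 mice in one fit, the day 6 calls of *Gla* (adjusted p = 0.419), *Ctsl* (0.482), *Ctsa* (0.205) and *Neu1* (0.05825) were lost. So were those of *Ctsf* (0.5915) and *Lgmn* (0.6416), and the day 4 call of *Neu1* (0.2386). Under the study's fold minimum 0 hydrolases were called on days 4 and 6 (0.68% and 1.32% of all genes).

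The luminal cofactors, which help hydrolases or carry lipids within the lysosome, rose late. None of 3 was called higher on days 4 and 6 by edgeR, whereas 2 and 1 were higher at an unadjusted p under 0.05 and DESeq2 called 1 on each day. On day 8, 2 rose, and on day 13 all 3. Among all genes 2.61%, 6.24%, 8.41% and 15.6% rose on days 4, 6, 8 and 13. *Psap* encodes prosaposin, the precursor of the saposins, and was the most abundant member per length, at 326 ± 5.71 CPM per kb of exon in controls (SD, n = 4). *Psap* stood at 902, 909, 873 and 893 CPM in control mice A to D, 937, 974, 972 and 965 CPM on day 4 and 928, 957, 957 and 937 CPM on day 6. Its level was 1085, 1030, 1075 and 1006 CPM on day 8, 1065, 1281, 1264 and 1272 CPM on day 13 and 885, 885, 869 and 779.6 CPM in Rap 4 mice. All 16 untreated *Tsc1-Cre*+ mice lay above all controls, while Rap 4 mice overlapped them. It rose on day 8 (0.22, SE 0.0466, adjusted p = 0.0128) and day 13 (0.43, SE 0.0739, adjusted p = 0.00368). *Grn* stood at 36.8, 36.5, 34.1 and 35.3 CPM in control mice A to D, 40.3, 39.8, 36.2 and 42.6 CPM on day 4 and 37.9, 39.2, 42.1 and 38.3 CPM on day 6. Its level was 56.2, 51.4, 52.3 and 45.3 CPM on day 8, 41.0, 61.0, 52.4 and 60.1 CPM on day 13 and 31.2, 30.6, 27.1 and 25.6 CPM in Rap 4 mice. From day 6 on, all untreated *Tsc1-Cre*+ mice lay above all controls, and all Rap 4 mice lay below them. *Grn*, the progranulin gene, rose on day 8 (0.51, SE 0.0647, adjusted p = 9.17e-04) and day 13 (0.57, SE 0.116, adjusted p = 0.00773) and fell in Rap 4 mice (-0.32, SE 0.0669, adjusted p = 0.0207); *Fam171a2* overlaps it on the opposite strand. *Npc2* stood at 31.8, 38.6, 33.1 and 34.8 CPM in control mice A to D, 31.8, 31.97, 29.5 and 35.9 CPM on day 4 and 32.1, 35.1, 33.6 and 32.1 CPM on day 6. Its level was 37.1, 35.9, 40.4 and 36.6 CPM on day 8, 40.2, 47.0, 43.4 and 52.1 CPM on day 13 and 27.3, 25.4, 26.1 and 25.7 CPM in Rap 4 mice. *Npc2*, which hands cholesterol to NPC1, rose on day 13 (0.38, SE 0.0972, adjusted p = 0.0189) and fell in Rap 4 mice, where all mice lay below all controls (-0.41, SE 0.0645, adjusted p = 0.00475). *Npc2* lost its day 13 call without control mouse A (0.35), control mouse C (0.36) or control mouse D (0.38), *Psap* its day 8 call without control mouse C (0.20) or day 8 mouse A (0.20), and *Grn* its call in Rap 4 mice without control mouse B (-0.31), control mouse D (-0.32) or Rap 4 mouse C (-0.29).

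Rapamycin was compared with both control and day 13. The 6 members that fell against control were *Ctsd*, *Lgmn*, *Grn*, *Npc2*, *Lamp1* and *Rragd*, with log2 fold changes of -0.38, -0.20, -0.32, -0.41, -0.17 and -0.29. In the same mice 9 of 12 microglial markers fell, beside 2.31% of all genes, and their summed level (183 to 209 CPM) lay below that of all controls (260 to 306 CPM). The part of these cells in the 6 values was not tested. All Rap 4 mice also lay below all controls for *Ctsl*, *Hexa*, *Glb1*, *Gusb* and *Atp6ap1*, and above them for *Atp6v0e*, without a call. The share of all genes with such a separation was not computed, so these members cannot be set against it. Against day 13, *Gpnmb* (-3.83), *Gla* (-2.0), *Atp6ap2* (-1.26), *Ctsl* (-1.22), *Ctsd* (-1.05) and *Rragd* (-1.04) were lower by more than 2-fold. With day 13 mice C and D alone, 34 members were lower, *Asah1* being lost (-0.20, adjusted p = 0.0847). The members not called between Rap 4 and day 13 were *Ctsf*, *Glb1*, *Gusb*, *Naglu*, *Tpp1*, *Npc1*, *Scarb2*, *Atp6v0e*, *Mitf* and *Fnip2*.

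Members rose both with and without the motif in a promoter. On day 13, 11 of the 14 members with TCACGTG in a promoter rose, beside 15.6% of all genes, with a median log2 fold change of 0.46 (-0.16 to 1.88). Of 24 members with a promoter but without these letters, 18 rose, with a median of 0.51 (-0.34 to 3.44). The other 7 members had no promoter in the table. *Naglu*, *Glb1* and *Atp6v0e*, which hold TCACGTG, were not called, and *Atp6ap2*, which does not, had the largest fold change of the V-ATPase class.

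Further genes of the pathway were taken from lists of the same classes. Of 31 other hydrolase genes, 3 rose and 1 fell on day 4 (2.61% and 1.56% of all genes). On day 6, 6 rose and 2 fell (6.24% and 3.81%), and on day 8, 7 rose and 2 fell (8.41% and 4.87%). On day 13, 13 rose and 1 fell (15.6% and 11.3%), and the median log2 fold change was 0.31. *Plbd2*, a lysosomal phospholipase B-like protein, was 0.54, SE 0.0505, adjusted p = 3.68e-04 on day 4 and 0.51 and 0.93 on days 6 and 13. *Dpp7*, a lysosomal dipeptidase, was 0.44 on day 6 and 0.73 on day 8. *Ctsk*, a collagen-degrading cathepsin, was 1.31, SE 0.324, adjusted p = 0.0169 on day 13. *Ctss*, the cathepsin typical of microglia, fell on day 4 (-0.35) and in Rap 4 mice (-0.57, SE 0.0700, adjusted p = 0.00120), where *Cpq*, a carboxypeptidase, was -0.62. In Rap 4 mice 4 of the 31 fell against control, beside 2.31% of all genes. Against day 13, 17 were lower in Rap 4 mice and 2 higher (17.7% and 13.1% of all genes), led by *Ctsk* (-1.80) and *Ctsc* (-1.09).

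Of 20 other membrane genes, 5 rose on day 13, beside 15.6% of all genes, with a median log2 fold change of 0.05. Of these 5, 3 passed the study's fold minimum (16.5% of all genes). *Clcn7*, the lysosomal chloride-proton exchanger, was 0.26, SE 0.0390, adjusted p = 0.00419 on day 4 and 0.31 and 0.50 on days 6 and 8. Its partner *Ostm1* was 0.48 on day 8 and 0.62 on day 13. The myeloid gene *Cd68* was 0.72, SE 0.233, adjusted p = 0.0448 on day 13, and *Laptm5*, of immune cells, fell on day 6 (-0.27) and in Rap 4 mice (-0.67) together with the tetraspanin gene *Cd63* (-0.58). Against day 13, 7 were lower and 1 higher in Rap 4 mice (17.7% and 13.1% of all genes), led by *Cd63* (-1.73) and *Cd68* (-1.18).

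Of 17 other V-ATPase genes, 14 were tested against control on each day. Of these 14, 1, 5, 7 and 8 rose on days 4, 6, 8 and 13, beside 2.61%, 6.24%, 8.41% and 15.6% of all genes. On day 13, 1 fell, beside 11.3% of all genes. *Atp6v0c*, which encodes the proton-carrying ring subunit, was 0.15 on day 4 (adjusted p = 0.0312). *Atp6v0b*, of the same ring, was 0.35, SE 0.0357, adjusted p = 6.85e-05 on day 6, 0.58 and 0.85 on days 8 and 13, and -1.01 in Rap 4 against day 13. *Ccdc115*, an assembly factor, was 0.34 on day 6, and *Atp6v1f*, subunit F, 0.48 on day 8. *Atp6v1c2*, an alternative form of subunit C, fell on day 13 (-0.997, SE 0.245, adjusted p = 0.0164) and was higher in Rap 4 than in day 13 mice (1.15). Its mean level was low, at 0.747 CPM in controls, 0.370 CPM on day 13 and 0.846 CPM in Rap 4 mice.

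Of 15 other genes of the Rag and TFEB pathway, 14 were tested, and 3 rose on day 13, beside 15.6% of all genes, with a median log2 fold change of 0.10. *Rraga*, the Rag A gene, was 0.27, SE 0.0550, adjusted p = 0.0193 on day 4 and 0.34, 0.56 and 0.76 on days 6, 8 and 13. *Lamtor3*, part of the Ragulator scaffold that holds the Rag GTPases on the lysosome, was 0.23 and 0.52 on days 6 and 8 and 0.86, SE 0.150, adjusted p = 0.00387 on day 13. Both were lower in Rap 4 than in day 13 mice (-0.74 and -0.91).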

How the data were processed

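RNA of 24 hippocampi was sequenced as stranded total RNA libraries. The deposited files hold 1 read count per gene and mouse, which the authors made by trimming with cutadapt 1.16.5, alignment to GRCm38 with STAR 2.7.2b and counting with featureCounts 1.6.4, as listed in the submitters' processing notes; the strand and multi-mapping settings of the counting are not given in the sources used here. Gene identifiers were named with GENCODE M21, which named 55144 of 55385. Counts were tested with edgeR 4.0.16 in R 4.3.3 (filterByExpr with a minimum count of 10, TMM, quasi-likelihood test, Benjamini-Hochberg over all genes tested) on the 8 mice of each comparison, and with an F test over the 6 groups. The SE was the absolute log2 fold change divided by the root of F. CPM were divided by the length of all exons joined where genes are compared. Promoters are RefSeq's of build GRCm38.p6. The procedure was tested on simulated counts. The members and lists were chosen with earlier results of these data known. Values in every mouse are given for up to 6 members a class that were called without overlap on day 8 or 13, for the transcription factors and *Gpnmb*, and for up to 6 called in Rap 4 mice. Of the other pathway lists, the genes with the largest called differences are named, except 1 that is not reported here. DESeq2 1.42.0, its size factors in edgeR, no filter, all 24 mice in 1 fit, the replicate letter, *Xist* level or animal series as a term, the study's fold minimum and leaving out each mouse were the alternatives. Fits with 2 mice of day 8 or day 13 were added after the data were seen.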

Additional observations from a re-analysis of the deposited data

Results flagged for a closer look

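Among 270 sets of 4 mice (45 members in 6 groups), 17 held a mouse whose distance to the others exceeded Dixon's 95% limit for 4 values, as a share of their range, where chance flags about 1 in 20 sets. Of these, 6 lay on day 13, 4 in Rap 4 mice, 3 in controls, 2 on day 8, and 1 each on days 4 and 6.

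Day 13 mouse B was the high mouse for *Gpnmb* (107.5 CPM against 49.88 to 56.24 CPM in the other 3), *Ctsd* (219.9 CPM against 143.5 to 151.4 CPM), *Atp6v1h* (305.6 CPM against 205.6 to 210.1 CPM) and *Atp6v1c1* (300.5 CPM against 245.2 to 249.5 CPM). It was also the mouse with the largest total count. Day 13 mouse A was low for *Psap* (1065 CPM against 1264 to 1281 CPM) and mouse D high for *Mitf* (22.55 CPM against 16.25 to 17.16 CPM).

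In Rap 4 mice, mouse D was low for *Psap* (779.6 CPM against 868.7 to 885.1 CPM) and *Atp6v1h* (108.2 CPM against 127.0 to 127.9 CPM), mouse B for *Lamp2* (69.35 CPM against 75.55 to 76.82 CPM) and mouse A for *Rragd* (79.26 CPM against 87.77 to 89.23 CPM). Among controls, mouse B was high for *Ctsl* (53.94 CPM against 47.22 to 48.27 CPM) and low for *Neu1* (36.39 CPM against 39.92 to 40.17 CPM), and mouse A was low for *Flcn* (42.45 CPM against 45.82 to 46.11 CPM).

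On day 8, mouse D was low for *Ctsb* (248.9 CPM against 267.3 to 270.8 CPM) and mouse B for *Asah1* (45.48 CPM against 50.54 to 50.76 CPM). On day 6, mouse A was low for *Naglu* (6.474 CPM against 7.403 to 7.518 CPM), and on day 4, mouse B was high for *Tfe3* (25.57 CPM against 24.39 to 24.57 CPM).

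For 9 members all day 13 mice lay above all controls and all Rap 4 mice below them. The share of all genes that meet this rule was not computed. The log2 fold changes of Rap 4 against day 13, tested with edgeR's quasi-likelihood test and Benjamini-Hochberg adjustment, were -0.644 for *Lamp1* (adjusted p = 0.0004875), -1.053 for *Ctsd* (0.0007983), -1.222 for *Ctsl* (0.0007263), -0.695 for *Hexa* (0.001882) and -0.797 for *Npc2* (0.0005725). For the other 4 they were -0.896 for *Grn* (0.001365), -0.663 for *Lgmn* (0.002432), -0.635 for *Atp6ap1* (0.0004826) and -1.038 for *Rragd* (0.001387). The hydrolases *Ctsl* and *Hexa* and the V-ATPase gene *Atp6ap1* were not called against control in Rap 4 mice. All 9 members were picked because day 13 and Rap 4 mice lay on opposite sides of control. Their adjusted p-values for Rap 4 against day 13 therefore add no support.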

How the results depend on the processing

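The number of members called was 9, 25, 32 and 36 on days 4, 6, 8 and 13 against control, 6 in Rap 4 mice against control, 35 in Rap 4 against day 13 and 41 by the F test over the 6 groups. No alternative reversed the direction of a called member. With the study's fold minimum the counts were 1, 1, 14 and 22 on the 4 days, and 0 in Rap 4 mice against control. With all 24 mice in 1 fit they were 1, 9, 30 and 38 on the 4 days and 1 in Rap 4 mice against control. Against day 13 that fit called 40 members, 38 lower and 2 higher in Rap 4 mice. With *Xist* level as a covariate the count was 5 on day 4, where *Neu1*, *Fnip2*, *Rragd* and the X-linked *Tfe3* lost their calls, and 18 on day 6, where *Ctsa*, *Ctsl*, *Ctsf*, *Lgmn*, *Laptm4a*, *Mcoln1* and *Atp6v1d* lost theirs. The X-linked *Gla*, *Lamp2*, *Atp6ap1* and *Atp6ap2* kept theirs on days 6, 8 and 13. With *Xist* as a covariate, 432 of 25308 genes in all were called on day 4 and 1335 of 25057 on day 6. Leaving out each mouse in turn gave 3 to 9 members on day 4, 22 to 26 on day 6, 26 to 33 on day 8, 30 to 37 on day 13, 2 to 8 in Rap 4 mice against control, 34 to 37 against day 13 and 39 to 42 by the F test. Genes called in all then numbered 323 to 1173 on day 4, 1473 to 2936 on day 6 and 1765 to 4076 on day 8. They numbered 3945 to 8021 on day 13, and 470 to 831 in Rap 4 mice against control. Against day 13 it was 4933 to 8304 genes, and by the F test 9930 to 12261. DESeq2 called 13, 28, 35, 36, 9, 36 and 42 members in the same order. Of all genes it called 1972 of 16313, 3345 of 18595, 4494 of 22590 and 7968 of 28970 on the 4 days. In Rap 4 mice it called 1729 of 19312 against control and 8552 of 27939 against day 13. Over the 6 groups it called 12764 of 30797.

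The letters A to D did not pair the mice: the correlation of the deviations of mice with the same letter ran from -0.184 to 0.193, and in no comparison were all 4 above 0.1. With the letter as a replicate block, 8, 24, 31, 34, 4, 35 and 42 members were called. Of all genes, 1077 of 25308, 2140 of 25057, 2364 of 25085 and 5204 of 24920 were then called on the 4 days. In Rap 4 mice 911 of 25006 were called against control and 6126 of 24274 against day 13. Over the 6 groups it was 10870 of 27110. With the animal series as a block, 32 members were called on day 8, beside 3105 of 25085 genes. The median log2 fold change of all genes stayed between -0.0486 and 0.0359 under every setting. Depth differed by mouse, the smallest library being that of Rap 4 mouse A. The p-values set group differences against the spread between mice only, with 4 mice a group.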
